A study of Mus musculus with 8 samples.

Results

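The enzymes and regulators of cholesterol synthesis were measured as a group of 27 genes in fatty, inflamed mouse liver. The genes were chosen by name, as the enzymes from acetyl-CoA to cholesterol, the transcription factor SREBP2 with the proteins that process it, and a sterol carrier. All 27 had a row in the deposited table of 40838 rows, and all 27 passed the filter on low counts that left 17438 genes for testing. Liver RNA was sequenced from C57BL/6 mice, a common inbred strain, in 2 groups of 4 libraries. The Lpcat3 group had received AAV-TBG-Lpcat3, an adeno-associated virus that carries Lpcat3, a gene for an enzyme that places polyunsaturated fatty acids into membrane phospholipids. The eGFP group had received AAV-TBG-eGFP, which carries a fluorescent protein instead. The TBG promoter, from the thyroxine-binding globulin gene, drives expression in hepatocytes, so that other liver cells are not targeted by design. Every mouse, controls included, ate a NASH diet (one that causes steatohepatitis) for 7 weeks before the virus and for 9 weeks after it, 16 weeks in all. The labels give no age or sex, no diet composition and no group on ordinary diet. The comparison asks how raised hepatic Lpcat3 relates to gene expression in this disease model.

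Cholesterol is built from acetyl-CoA through mevalonate, the isoprenoid diphosphates, squalene and lanosterol, and the liver is a major site of this synthesis. The genes of the pathway are switched on together by SREBP2, which is made as an inactive precursor held in the endoplasmic reticulum. When membrane cholesterol is low, SCAP escorts the precursor to the Golgi, where a pair of proteases release its active part. When cholesterol is high, the INSIG proteins hold SCAP back. SREBP2 processing is therefore controlled on the protein, which mRNA levels do not measure.

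The promoters of 6 members are shown, of which Hsd17b7, Tm7sf2, Insig1 and Insig2 are described at length below. The windows are the 250 bases before the RefSeq transcription start, on mouse build GRCm38.p6, printed 5′ to 3′ on the gene's own strand. Capitals mark matches to a sterol regulatory element (TCACNCCAC, with N any base) and to the CCAAT box (CCAAT, or ATTGG on the other strand), the element bound by the NF-Y factor that works beside SREBP2. Every printed window holds a CCAAT box, and only that of Hmgcs1 holds a match to the sterol regulatory element. For Insig2, which has 3 annotated starts, the farthest upstream window is printed. The other Insig2 windows hold no CCAAT box and no match to the sterol regulatory element.
Hmgcs1 (chr13:119690101-119690350, plus strand): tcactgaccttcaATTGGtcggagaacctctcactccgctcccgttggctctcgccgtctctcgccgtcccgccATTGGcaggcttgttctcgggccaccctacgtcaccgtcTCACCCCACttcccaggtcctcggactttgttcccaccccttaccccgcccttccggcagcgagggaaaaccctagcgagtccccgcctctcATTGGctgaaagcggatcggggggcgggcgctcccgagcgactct
Idi1 (chr13:8885356-8885605, plus strand): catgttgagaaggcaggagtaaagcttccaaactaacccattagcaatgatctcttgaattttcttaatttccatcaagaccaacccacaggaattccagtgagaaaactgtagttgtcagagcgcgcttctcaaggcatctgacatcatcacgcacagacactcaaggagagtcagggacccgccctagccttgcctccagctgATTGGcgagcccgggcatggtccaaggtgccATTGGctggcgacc
Hsd17b7 (chr1:169969206-169969455, minus strand): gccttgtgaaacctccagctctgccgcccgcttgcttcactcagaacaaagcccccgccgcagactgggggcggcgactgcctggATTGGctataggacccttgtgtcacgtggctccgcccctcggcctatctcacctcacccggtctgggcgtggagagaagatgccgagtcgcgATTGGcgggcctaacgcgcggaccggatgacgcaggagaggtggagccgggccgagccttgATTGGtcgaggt
Tm7sf2 (chr19:6067851-6068100, minus strand): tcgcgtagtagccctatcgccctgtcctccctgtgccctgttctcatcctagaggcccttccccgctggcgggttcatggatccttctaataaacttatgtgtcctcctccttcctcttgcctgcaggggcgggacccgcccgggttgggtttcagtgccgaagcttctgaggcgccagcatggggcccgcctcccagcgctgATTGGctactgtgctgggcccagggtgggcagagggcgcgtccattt
Insig1 (chr5:28071162-28071411, plus strand): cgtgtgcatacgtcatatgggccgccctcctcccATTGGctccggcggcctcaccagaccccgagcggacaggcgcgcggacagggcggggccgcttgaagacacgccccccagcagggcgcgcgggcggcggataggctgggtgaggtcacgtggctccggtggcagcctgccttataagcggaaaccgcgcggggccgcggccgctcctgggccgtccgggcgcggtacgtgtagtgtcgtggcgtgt
Insig2 (chr1:121332590-121332839, minus strand): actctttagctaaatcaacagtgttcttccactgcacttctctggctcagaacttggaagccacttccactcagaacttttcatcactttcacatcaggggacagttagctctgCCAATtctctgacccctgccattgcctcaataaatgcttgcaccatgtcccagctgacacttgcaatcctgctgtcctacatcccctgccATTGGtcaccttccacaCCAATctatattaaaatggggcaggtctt

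Of the 27 genes, 23 were found in the RefSeq promoter table, with 29 windows, and Fdps, Fdft1, Sqle and Stard4 were not among them. The sterol regulatory element, searched on both strands as written, was found in 1 of the 29 windows (3.45%), that of Hmgcs1, against 1.05% of all 32851 windows. The CCAAT box was found in 19 windows (65.5%) of 19 genes, against 33.8% of all windows. The GC box, GGGCGG on either strand, the element of Sp1-type factors, was in 22 windows (75.9%) of 20 genes, against 32.7% of all windows. Matches to the 3 motifs could overlap. These matches describe the printed windows, and no promoter activity was measured.

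Libraries held 22433625 to 25651874 counts, so depth was even, and Mvd had the fewest counts of the members. Levels are in CPM, the count divided by the library's total after TMM scaling. The delivered gene, Lpcat3, was at 274, 401, 465 and 311 CPM in the Lpcat3 livers and at 158, 148, 133 and 173 CPM in the eGFP livers (log2 fold change 1.25, SE 0.17; edgeR adjusted p = 0.164, DESeq2 adjusted p = 9.77e-09). All Lpcat3 livers were above all eGFP livers, as the labels require. Counts by gene do not separate transcripts of the vector from those of the mouse's own Lpcat3, so these levels may hold both. The labels do not state that the samples are separate animals, and a p-value here covers the spread among these libraries, which may be technical. Each sample carries a code with the number 1290, 1317, 1344 or 1345, whose meaning is not given. Lpcat3 replicate 1 and eGFP replicates 1 to 3 have 1290 or 1317, and Lpcat3 replicates 2 to 4 and eGFP replicate 4 have 1344 or 1345, so the division of codes is uneven between the groups. Hepatocyte markers were abundant in every library, with the sum of 10 genes at 76370 to 108100 CPM in the Lpcat3 livers and 63940 to 94130 CPM in the eGFP livers. The sum of 12 macrophage and Kupffer cell markers was 375 to 498 CPM in the Lpcat3 livers and 516 to 832 CPM in the eGFP livers, with 11 of the 12 lower. In bulk liver, fewer cells of a type and less RNA per cell cannot be told apart.

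No member passed the test across all genes, and the differences between the groups were small. edgeR's quasi-likelihood test called 0 of the 27 members at an adjusted p of 0.05, against 1 of 17438 genes (0.00573%), Egfros, a noncoding RNA gene named here after its values were seen, and the smallest adjusted p of a member was 0.564, for Hsd17b7. At an unadjusted p under 0.05 there were 2 members (7.41%), Hsd17b7 and Tm7sf2, against 8.48% of all genes. DESeq2 called 0 members, against 0.292% of all genes. The groups did not overlap for 1 member (3.70%), Hsd17b7, against 4.16% of all genes. Each of these member shares lies below the share over all genes. Without eGFP replicate 4 there were 8 members (29.6%) at an unadjusted edgeR p under 0.05, against 2564 of all genes (14.5%), and leaving out any other library gave 1 to 3 members.

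The direction was uneven, with 19 of 27 members (70.4%) higher in the Lpcat3 livers, against 48.5% of all tested genes. The median log2 fold change of the members was 0.08, against -0.0065 over all genes. Of the 10 hepatocyte markers, 9 were also higher and 1 lower, with a median of 0.16. The part of hepatocyte RNA in the members' direction was not tested. By stage, 5 of 6 SREBP2-processing genes were higher, with a median of 0.03. Among these, the log2 fold changes of Srebf2 (0.03), Mbtps1 (0.04), Mbtps2 (0.0012) and Insig1 (0.10) were smaller than their SE. Of the enzymes, 4 of 8 were higher from acetyl-CoA to the isoprenoids and 3 of 3 from squalene to lanosterol. From lanosterol to cholesterol 6 of 9 were higher, and so was Stard4. Scaling by library totals in place of TMM moved the median of all genes to -0.13. Under it 10 members were above 0 and the members' median was -0.02, while 19 members were still above the median of all genes. Without eGFP replicate 3, 15 members were higher and their median was 0.0073, and without Lpcat3 replicate 1, 15 were higher with a median of 0.04. Without both libraries numbered 3, 18 were higher with a median of 0.04.

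**Figure D1:**
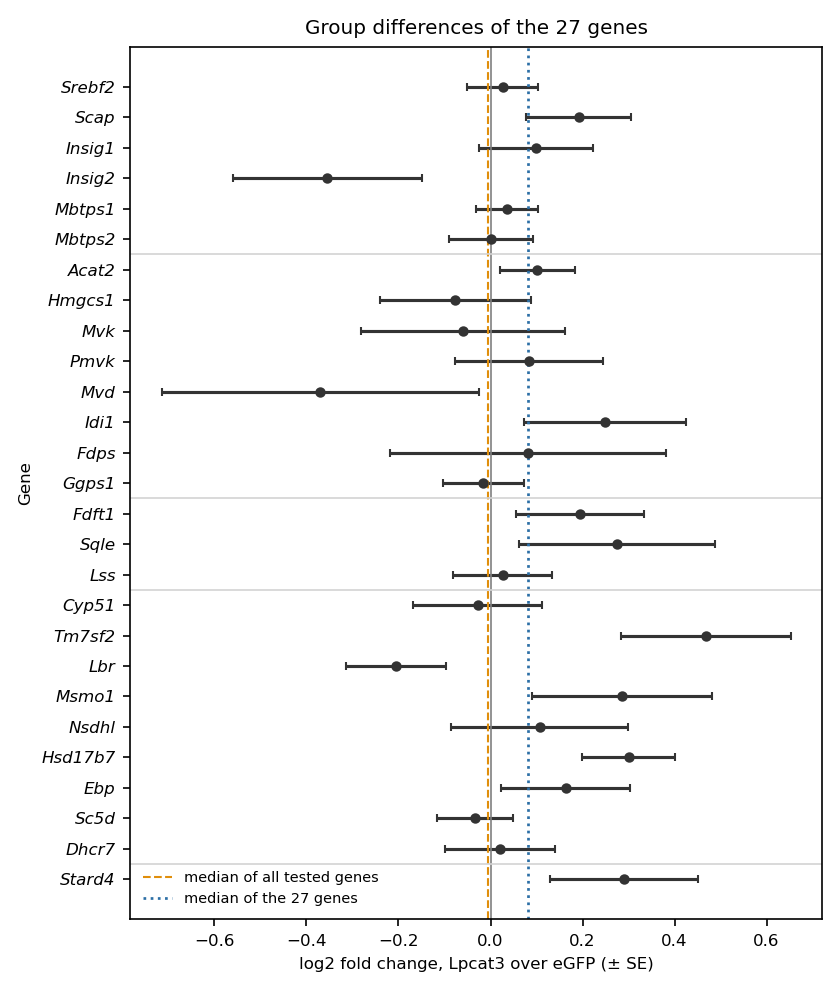
Log2 fold change of each gene, Lpcat3 over eGFP livers (points, with bars of 1 SE from the edgeR fit), ordered by stage of the pathway from SREBP2 control at the top to the sterol carrier at the bottom. The dashed line is the median of all tested genes (-0.0065) and the dotted line that of the 27 genes (0.08). Tm7sf2, at 0.47, lies farthest to the right and Mvd, at -0.37, farthest to the left.

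Levels per kilobase of exon place the members on a common scale. Sc5d, a late desaturase, had the highest level, at 86.4 CPM per kilobase in the Lpcat3 livers and 88.4 in the eGFP livers. Insig2 came next, at 53.0 CPM per kilobase in the Lpcat3 livers and 67.8 in the eGFP livers, and then Insig1, at 47.7 in the Lpcat3 livers and 44.5 in the eGFP livers. The order of these 2 genes is not separated by the spread between libraries, since the level of Insig2 ran from 128 to 220 CPM among the Lpcat3 livers alone. Mvd, the decarboxylase that ends the mevalonate steps, was the lowest, at 0.38 CPM per kilobase in the Lpcat3 livers and 0.49 in the eGFP livers, and Mvk, the mevalonate kinase, was next lowest at 1.26 in the Lpcat3 livers and 1.31 in the eGFP livers. Exon lengths came from an annotation of GRCm38 and not from that of the authors, so these values are approximate.

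SREBP2 mRNA had nearly the same mean in both groups. Srebf2, which encodes SREBP2, was at 31.9, 28.1, 28.2 and 27.5 CPM in the Lpcat3 livers and at 30.9, 29.0, 25.9 and 27.8 CPM in the eGFP livers (log2 fold change 0.03, SE 0.08; edgeR adjusted p = 0.921; exact permutation p = 0.743). The groups overlap almost wholly, and replicate 1 of each group had the highest value of that group. Scap, the escort protein, was at 84.2, 91.1, 107.6 and 86.0 CPM in the Lpcat3 livers and at 75.2, 79.7, 70.8 and 97.4 CPM in the eGFP livers (log2 fold change 0.19, SE 0.11; edgeR adjusted p = 0.648; exact permutation p = 0.2). Lpcat3 replicate 3 was the highest for Scap, and eGFP replicate 4 was above the other Lpcat3 livers. The log2 fold change of Scap was 0.11 without the first of these libraries and 0.29 without the other.

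The 2 retention genes differed in pattern. Insig1, itself a target of SREBP2, was at 122, 130, 134 and 128 CPM in the Lpcat3 livers and at 106, 137, 95.3 and 142 CPM in the eGFP livers (log2 fold change 0.10, SE 0.12; edgeR adjusted p = 0.809; exact permutation p = 0.457). The Lpcat3 livers lie close together, inside the range of the eGFP livers, with a SD of 4.82 CPM in the Lpcat3 livers against 22.7 CPM in the eGFP livers. Without eGFP replicate 3 the log2 fold change of Insig1 was 0.0012, and without eGFP replicate 4 it was 0.19. Insig2 was at 220, 132, 128 and 147 CPM in the Lpcat3 livers and at 209, 232, 219 and 141 CPM in the eGFP livers (log2 fold change -0.36, SE 0.21; edgeR adjusted p = 0.643; exact permutation p = 0.2). The values fall by code and not by group: the 4 livers coded 1290 or 1317 were at 209 to 232 CPM and the 4 coded 1344 or 1345 at 128 to 147 CPM. Within the codes 1290 and 1317 the log2 difference of Insig2, Lpcat3 minus eGFP, was 0.0016, and within 1344 and 1345 it was -0.06. Without Lpcat3 replicate 1 the log2 fold change of Insig2 was -0.56. The proteases that release SREBP2 showed little spread: Mbtps1, which makes the first cut, was at 66.6 to 76.8 CPM in the Lpcat3 livers and 65.0 to 73.3 CPM in the eGFP livers, and Mbtps2, which makes the next, at 16.01 to 20.6 CPM in the Lpcat3 livers and 16.7 to 18.7 CPM in the eGFP livers. Their log2 fold changes were 0.04 (SE 0.07) for Mbtps1 and 0.0012 (SE 0.09) for Mbtps2.

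**Figure D2:**
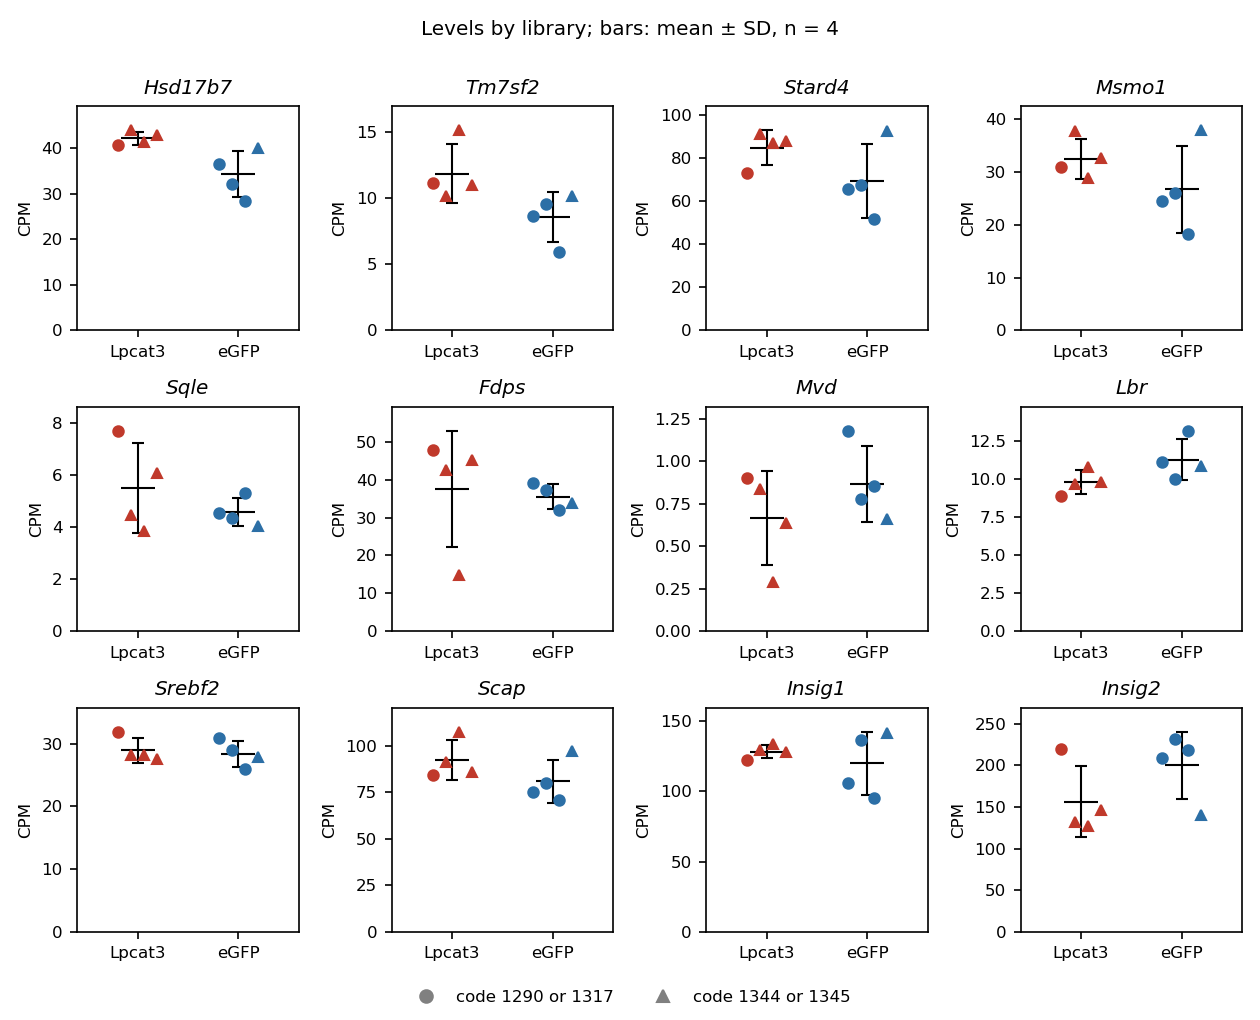
CPM of the 12 members described library by library, in Lpcat3 livers (red) and eGFP livers (blue), with horizontal bars for the mean ± SD of 4 libraries. Circles are livers coded 1290 or 1317 and triangles those coded 1344 or 1345. Hsd17b7 is the member whose groups do not overlap, at 40.7 CPM or more in the Lpcat3 livers and 40.1 CPM or less in the eGFP livers, and Insig2 separates by code.

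From acetyl-CoA to the isoprenoids, 4 of 8 members had positive log2 fold changes and none passed the test. Acat2, the cytosolic thiolase that opens the pathway, averaged 93.8 ± 4.41 CPM in the Lpcat3 livers and 87.5 ± 8.79 CPM in the eGFP livers (SD, n = 4 each). Hmgcs1, the synthase that forms HMG-CoA, averaged 90.3 ± 22.0 CPM in the Lpcat3 livers and 95.2 ± 9.98 CPM in the eGFP livers, and ran from 64.9 CPM in Lpcat3 replicate 3 to 118 CPM in Lpcat3 replicate 1. These 2 values of the Lpcat3 group enclose every eGFP liver. The kinases were low, with Mvk at 1.87 to 3.07 CPM in the Lpcat3 livers and 1.93 to 3.18 CPM in the eGFP livers, and Pmvk, which adds the next phosphate, at 4.50 to 5.47 CPM in the Lpcat3 livers and 3.49 to 5.58 CPM in the eGFP livers. The log2 fold changes were 0.10 (SE 0.08) for Acat2, -0.08 (SE 0.16) for Hmgcs1, -0.06 (SE 0.22) for Mvk and 0.08 (SE 0.16) for Pmvk.

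Mvd was at 0.90, 0.84, 0.29 and 0.64 CPM in the Lpcat3 livers and at 1.18, 0.78, 0.85 and 0.66 CPM in the eGFP livers. These are 21, 19, 6 and 16 counts in the Lpcat3 livers and 30, 19, 23 and 16 counts in the eGFP livers. The counts are few, and the part of counting error in the spread was not tested. The log2 fold change was -0.37 (SE 0.34; edgeR adjusted p = 0.741; exact permutation p = 0.371). Without Lpcat3 replicate 3, the library with 6 counts, it was -0.13, without eGFP replicate 1 it was -0.19, and in the fit that includes the code class it was -0.10. Idi1, the isomerase that makes the reactive isoprenoid unit, was at 22.3 to 42.9 CPM in the Lpcat3 livers and 22.5 to 28.4 CPM in the eGFP livers, a log2 fold change of 0.25 (SE 0.18), with the 42.9 CPM in Lpcat3 replicate 1. The other Lpcat3 livers, at 22.3 to 30.7 CPM, overlap the eGFP livers, and without replicate 1 the log2 fold change of Idi1 was 0.06.

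Fdps joins these units to farnesyl diphosphate, the branch point between sterols and other isoprenoids. It was at 47.9, 42.5, 14.8 and 45.2 CPM in the Lpcat3 livers and at 39.1, 37.4, 31.9 and 33.9 CPM in the eGFP livers (log2 fold change 0.08, SE 0.30; edgeR adjusted p = 0.94; exact permutation p = 1). Of the Lpcat3 livers, 3 were above every eGFP liver and replicate 3 was below every eGFP liver, and without that library the log2 fold change was 0.35. Ggps1, which makes geranylgeranyl diphosphate for protein prenylation, was at 18.1 to 21.6 CPM in the Lpcat3 livers and 18.0 to 21.8 CPM in the eGFP livers, with a log2 fold change of -0.02 (SE 0.09).

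The 3 enzymes from squalene to lanosterol had positive log2 fold changes, and none passed the test. Fdft1, squalene synthase, the first step committed to sterols, averaged 45.7 ± 5.03 CPM in the Lpcat3 livers and 39.9 ± 7.72 CPM in the eGFP livers (log2 fold change 0.19, SE 0.14, and 0.08 without eGFP replicate 3). Sqle, the epoxidase, was at 7.70, 4.46, 3.84 and 6.09 CPM in the Lpcat3 livers and at 4.56, 4.37, 5.31 and 4.05 CPM in the eGFP livers (log2 fold change 0.27, SE 0.21; edgeR adjusted p = 0.691; exact permutation p = 0.429). Lpcat3 replicates 1 and 4 were above every eGFP liver for Sqle, and replicate 3 was below every eGFP liver. Without Lpcat3 replicate 1 the log2 fold change of Sqle was 0.07, and without replicate 3 it was 0.41. Lss, which folds the epoxide into lanosterol, averaged 17.4 ± 1.58 CPM in the Lpcat3 livers and 17.1 ± 2.23 CPM in the eGFP livers (log2 fold change 0.03, SE 0.11).

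Among the 9 enzymes that turn lanosterol into cholesterol stand the members with the smallest p-values. Hsd17b7, the keto reductase of the demethylation complex, was at 40.7, 44.0, 41.5 and 42.8 CPM in the Lpcat3 livers and at 36.5, 32.2, 28.5 and 40.1 CPM in the eGFP livers. Every Lpcat3 liver was above every eGFP liver, but the nearest values, 40.7 and 40.1 CPM, almost touch. For the log2 fold change of 0.30 (SE 0.10), edgeR gave p = 0.0142 unadjusted and 0.564 adjusted, and the exact permutation p was 0.0286, the smallest that 70 relabellings allow. Within the codes 1290 and 1317 the log2 difference was 0.34, and within 1344 and 1345 it was 0.09.

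Tm7sf2 and Lbr encode the 2 sterol reductases that act after Cyp51, and their values ran in opposite directions. Tm7sf2 was at 11.2, 10.2, 15.1 and 11.02 CPM in the Lpcat3 livers and at 8.68, 9.60, 5.90 and 10.2 CPM in the eGFP livers (log2 fold change 0.47, SE 0.18; unadjusted p = 0.0299 and adjusted p = 0.579 in edgeR; exact permutation p = 0.0571). The lowest Lpcat3 liver and the highest eGFP liver are level at 10.2 CPM, and the farthest values are those of the libraries numbered 3. Without both of those libraries the log2 fold change of Tm7sf2 was 0.19. Lbr, which is also a receptor of the nuclear lamina, was at 8.87, 9.67, 10.8 and 9.79 CPM in the Lpcat3 livers and at 11.1, 10.01, 13.1 and 10.8 CPM in the eGFP livers (log2 fold change -0.21, SE 0.11; edgeR adjusted p = 0.625; exact permutation p = 0.0571). The groups overlap for Lbr because Lpcat3 replicate 3 was above eGFP replicate 2.

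Msmo1, the methyl oxidase that begins the demethylation, was at 30.9, 37.7, 28.8 and 32.6 CPM in the Lpcat3 livers and at 24.6, 26.0, 18.3 and 37.9 CPM in the eGFP livers (log2 fold change 0.29, SE 0.19; edgeR adjusted p = 0.668; exact permutation p = 0.229). The Lpcat3 livers were above eGFP replicates 1 to 3, and eGFP replicate 4 was above them all. Nsdhl, the dehydrogenase of the same complex, was at 11.5 to 21.3 CPM in the Lpcat3 livers and 11.7 to 18.4 CPM in the eGFP livers (log2 fold change 0.11, SE 0.19). For both genes the groups overlap. Without eGFP replicate 3 the log2 fold change of Msmo1 was 0.14, without eGFP replicate 4 it was 0.50, and without Lpcat3 replicate 1 that of Nsdhl was -0.07.

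The other 4 members of this stage overlapped between the groups. Cyp51, the demethylase that acts on lanosterol, averaged 22.8 ± 4.55 CPM in the Lpcat3 livers and 23.2 ± 1.75 CPM in the eGFP livers, and Ebp, the isomerase, averaged 64.2 ± 8.87 CPM in the Lpcat3 livers and 57.3 ± 10.8 CPM in the eGFP livers. Sc5d averaged 420.5 ± 27.8 CPM in the Lpcat3 livers and 430.3 ± 24.8 CPM in the eGFP livers. Dhcr7, a reductase of the last steps, averaged 34.6 ± 4.61 CPM in the Lpcat3 livers and 34.1 ± 4.59 CPM in the eGFP livers (SD, n = 4 each). Their log2 fold changes were -0.03 (SE 0.14) for Cyp51, 0.16 (SE 0.14) for Ebp, -0.03 (SE 0.08) for Sc5d and 0.02 (SE 0.12) for Dhcr7. Ebp was at 0.06 without Lpcat3 replicate 3 and at 0.29 without eGFP replicate 4.

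Stard4, a cytosolic sterol carrier and SREBP2 target, was at 73.0, 91.2, 87.3 and 88.2 CPM in the Lpcat3 livers and at 65.8, 67.6, 51.6 and 92.8 CPM in the eGFP livers (log2 fold change 0.29, SE 0.16; edgeR adjusted p = 0.631; exact permutation p = 0.143). Without eGFP replicate 3 the log2 fold change was 0.17, and without eGFP replicate 4 it was 0.46. As for Msmo1, the Lpcat3 livers were above eGFP replicates 1 to 3 and not above eGFP replicate 4, which was the highest of all. By code, the livers coded 1344 or 1345 were at 87.3 to 92.8 CPM and those coded 1290 or 1317 at 51.6 to 73.0 CPM.

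The count of members with a positive difference was unequal in the 2 code classes, a division examined after the values were seen. Within 1290 and 1317, Lpcat3 replicate 1 against eGFP replicates 1 to 3, 22 of 27 members were higher in the Lpcat3 liver, with a median log2 difference of 0.19. Within 1344 and 1345, Lpcat3 replicates 2 to 4 against eGFP replicate 4, 6 of 27 were higher, with a median of -0.06. Over all 17438 genes, 8451 and 8410 were higher in the 2 classes, with medians of -0.0072 and -0.0077. The turn was not particular to the members. Of 10 hepatocyte markers, 9 were higher within 1290 and 1317 (median 0.22) and 3 within 1344 and 1345 (median -0.08). Of 13 other genes of sterol synthesis and uptake, 11 and 4 were higher, with medians of 0.16 and -0.08. Each class has a group of 1 library, Lpcat3 replicate 1 or eGFP replicate 4, so every sign rests on that library and no value here has a replicate check. Tm7sf2, Sqle, Hsd17b7 and Srebf2 were higher in both classes, Lbr, Mvd and Mbtps2 lower in both, and the other 20 had opposite signs.

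An interaction of group and code class in edgeR, added after this pattern was seen, restates it per gene and is no independent evidence for it. The spread in that fit comes only from the groups of 3 libraries, and the lone library of each class is assumed to vary like them. It called 0 members and 0 of all genes (0%), with every member at an adjusted p of 1. At an unadjusted p under 0.05 there were 5 members (18.5%), Nsdhl, Idi1, Dhcr7, Lss and Ggps1, against 1.51% of all genes. With no adjusted p under 0.05, the difference between the classes is not shown for any member. Nsdhl, for example, was at 21.3 CPM in the Lpcat3 liver coded 1290 against 11.7 to 15.1 CPM in the eGFP livers coded 1290 or 1317, and at 11.5 to 15.7 CPM in the Lpcat3 livers coded 1344 or 1345 against 18.4 CPM in the eGFP liver coded 1345. Ggps1 ran the other way, with a log2 difference of -0.24 within 1290 and 1317 and 0.23 within 1344 and 1345. What the codes stand for is not given. With 1 Lpcat3 and 1 eGFP library alone in a class, the class and the single library cannot be told apart.

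**Figure D3:**
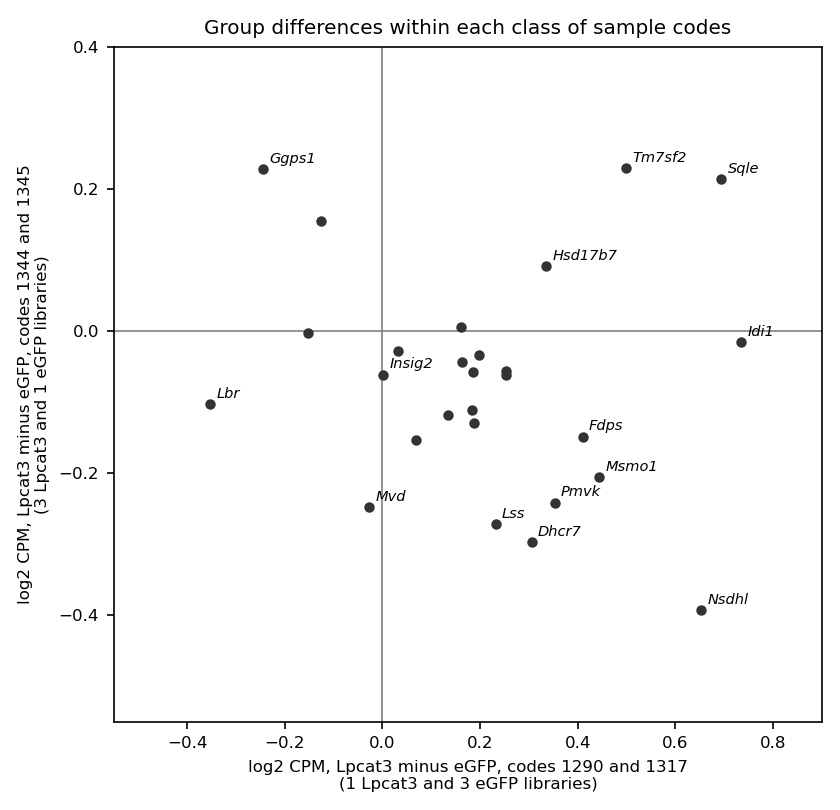
Difference in mean log2 CPM, Lpcat3 minus eGFP livers, within the codes 1290 and 1317 (horizontal axis) and within the codes 1344 and 1345 (vertical axis); each point is a member gene. Most points lie to the right of 0 and below 0, as 22 of 27 members were higher on the horizontal axis and 6 of 27 on the vertical axis.

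Codes also separated some members regardless of group. The code classes did not overlap for 3 members (11.1%), Insig2, Scap and Stard4, against 12.7% of all genes. Insig2 was higher under 1290 and 1317, while Scap, at 70.8 to 84.2 CPM there and 86.0 to 107.6 CPM under 1344 and 1345, and Stard4 were lower. The share is close to that of all genes.

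Single libraries stood at the ends for many members. Of the 27 genes, 22 had their lowest value in a library numbered 3. Over all genes, the lowest value was in Lpcat3 replicate 3 for 20.8% and in eGFP replicate 3 for 21.6%. These 2 libraries differ in group and code class, and their shared number was not taken as a pairing. Lpcat3 replicate 3 was the lowest for 11 members (40.7%), against 20.8% of all genes, and these were Insig2, Hmgcs1, Mvd, Idi1, Fdps, Sqle, Lss, Cyp51, Nsdhl, Sc5d and Dhcr7. The same library was the highest for Scap, Acat2, Tm7sf2 and Ebp, so it did not sit low across the pathway. For another 11 members (40.7%) the lowest was eGFP replicate 3, against 21.6% of all genes, and these were Srebf2, Scap, Insig1, Acat2, Pmvk, Fdft1, Tm7sf2, Msmo1, Hsd17b7, Ebp and Stard4.

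At the upper end, Lpcat3 replicate 1 was the highest for 7 members (25.9%), Srebf2, Hmgcs1, Idi1, Fdps, Sqle, Cyp51 and Nsdhl, against 6.90% of all genes. The highest value of 7 more (25.9%), Insig1, Pmvk, Lss, Msmo1, Sc5d, Dhcr7 and Stard4, was in eGFP replicate 4, against 10.3% of all genes. Lpcat3 replicate 1 and eGFP replicate 4 are the libraries that stand alone in their code class. The median of the 27 genes relative to the eGFP mean was 0.16 in Lpcat3 replicate 1 and -0.05 in Lpcat3 replicate 3, and -0.18 in eGFP replicate 3 and 0.10 in eGFP replicate 4, on the log2 scale.

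Marker levels of the same libraries stand apart too. The hepatocyte marker sum was highest in Lpcat3 replicate 3, at 108100 CPM, and lowest in eGFP replicate 3, at 63940 CPM. The sum of 9 stellate and fibroblast markers was 298 CPM in Lpcat3 replicate 3, 530 to 553 CPM in the other Lpcat3 livers and 461 to 570 CPM in the eGFP livers. Cholangiocyte markers summed to 39.6 to 128 CPM in the Lpcat3 livers and 38.2 to 86.5 CPM in the eGFP livers, endothelial markers to 317 to 401 CPM in the Lpcat3 livers and 400 to 435 CPM in the eGFP livers, and lymphocyte and neutrophil markers to 4.60 to 6.63 CPM in the Lpcat3 livers and 4.53 to 13.9 CPM in the eGFP livers. Of the defining markers, Ly6g had 1 count over all libraries and Cd3g had 88, and both fell under the filter on low counts. The part of these differences in the members' values was not tested.

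**Figure D4:**
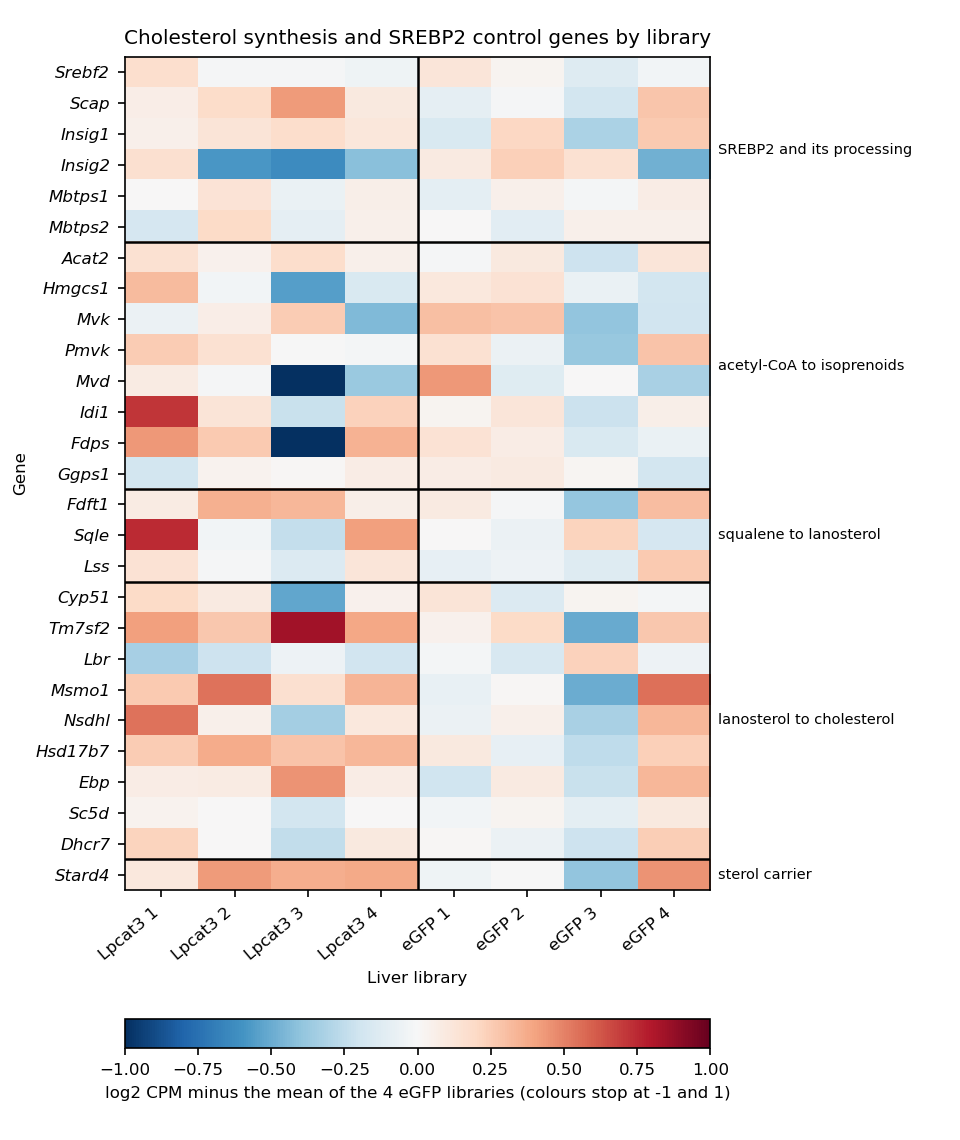
Log2 CPM of each gene in each library minus the mean of the 4 eGFP libraries (colour, red above and blue below 0, stopping at -1 and 1), with genes in rows by stage and livers in columns, Lpcat3 livers left of the line. Lpcat3 replicate 3 is lowest for 11 genes, against 20.8% of all genes, and eGFP replicate 3 for another 11, against 21.6%.

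Spread within a group set how small a difference could be seen. The larger of the 2 within-group SDs of log2 CPM ran from 0.09 for Mbtps1, 0.10 for Sc5d and 0.11 for Srebf2 to 0.44 for Sqle, 0.64 for Mvd and 0.80 for Fdps. Among the SREBP2 control genes, Insig2 (0.36) and Insig1 (0.28) spread the most, and the widest members of all were enzymes of the middle of the pathway.

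Other genes of sterol metabolism were set beside the members, and edgeR called 0 of them in any of 4 lists, as did DESeq2. At an unadjusted edgeR p under 0.05 there were 1 of 13, 1 of 13, 2 of 21 and 0 of 15 tested genes in the lists in the order given here, against 8.48% of all genes. Among other genes of sterol synthesis and uptake, 12 of 13 tested were higher in the Lpcat3 livers, with a median log2 fold change of 0.08. Aacs, which makes acetoacetyl-CoA for the pathway, averaged 67.8 ± 29.6 CPM in the Lpcat3 livers and 48.7 ± 10.1 CPM in the eGFP livers, with 110.8 CPM in Lpcat3 replicate 2. Tmem97, a sterol-responsive membrane protein, averaged 55.5 ± 7.27 CPM in the Lpcat3 livers and 48.2 ± 7.54 CPM in the eGFP livers, and the lipoprotein receptor gene Lrp1 averaged 1574 ± 103 CPM in the Lpcat3 livers and 1476 ± 150 CPM in the eGFP livers (SD, n = 4 each). The groups overlapped for all 3 genes.

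In the list of proteins that degrade or hold pathway proteins in the endoplasmic reticulum, 6 of 13 were higher, with a median of -0.001. Hspa5, the chaperone BiP, was at 238, 188, 197 and 199.8 CPM in the Lpcat3 livers and at 219.8, 309, 311 and 208 CPM in the eGFP livers (log2 fold change -0.35, SE 0.15; unadjusted p = 0.0406 and adjusted p = 0.581 in edgeR). Its eGFP livers fall into a high and a low pair, and the low pair overlaps the Lpcat3 livers. Hspa5 also separated by code, at 219.8 to 311 CPM under 1290 and 1317 and 188 to 208 CPM under 1344 and 1345. In the fit that includes the code class its log2 fold change was -0.17. In this list the code classes did not overlap for 2 of 13 genes, against 12.7% of all genes. The part of the code classes in these values was not tested. Ufd1, which helps to draw proteins out of the membrane for degradation, averaged 24.8 ± 1.11 CPM in the Lpcat3 livers and 23.2 ± 1.39 CPM in the eGFP livers (SD, n = 4 each).

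Of the genes for sterol storage, transport and export, 12 of 21 were higher, with a median of 0.04. Soat1, which esterifies cholesterol and is abundant in macrophages, was at 17.1, 14.7, 12.6 and 15.5 CPM in the Lpcat3 livers and at 26.0, 16.6, 25.2 and 16.2 CPM in the eGFP livers (log2 fold change -0.49, SE 0.18; unadjusted p = 0.0208 and adjusted p = 0.569 in edgeR). Abcg1, a sterol exporter that macrophages express strongly, was at 33.1, 34.7, 31.3 and 29.6 CPM in the Lpcat3 livers and at 52.9, 33.9, 42.8 and 34.2 CPM in the eGFP livers (log2 fold change -0.35, SE 0.14; unadjusted p = 0.0331 and adjusted p = 0.579 in edgeR). Both were high in eGFP replicates 1 and 3, and so was the macrophage marker sum, at 832 and 719 CPM there against 516 and 533 CPM in eGFP replicates 2 and 4. Soat1 also separated by code, at 16.6 to 26.0 CPM under 1290 and 1317 and 12.6 to 16.2 CPM under 1344 and 1345. In this list the code classes did not overlap for 8 of 21 genes, against 12.7% of all genes. The part of macrophage RNA or of the code classes in these values was not tested. Soat2, the hepatocyte esterifying enzyme, averaged 20.1 ± 2.44 CPM in the Lpcat3 livers and 23.1 ± 2.04 CPM in the eGFP livers, and Mylip, a ligase that turns over lipoprotein receptors, 24.6 ± 3.39 CPM in the Lpcat3 livers and 28.7 ± 3.26 CPM in the eGFP livers (SD, n = 4 each).

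Of the enzymes that use isoprenoids outside the sterol branch, 6 of 15 were higher, with a median of -0.02. Icmt, which methylates prenylated proteins, averaged 33.9 ± 1.55 CPM in the Lpcat3 livers and 31.6 ± 0.95 CPM in the eGFP livers, and Rabggta, a subunit of a geranylgeranyl transferase, averaged 19.2 ± 0.81 CPM in the Lpcat3 livers and 17.9 ± 2.11 CPM in the eGFP livers. Fntb, the farnesyl transferase subunit, averaged 2.57 ± 0.40 CPM in the Lpcat3 livers and 3.07 ± 0.22 CPM in the eGFP livers, and Coq2, an enzyme of coenzyme Q synthesis, averaged 23.1 ± 2.24 CPM in the Lpcat3 livers and 25.5 ± 2.37 CPM in the eGFP livers (SD, n = 4 each). None of these passed the test.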

How the data were processed

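RNA-seq of 8 livers was analysed from raw counts per gene, as deposited by the authors without normalization. Per the submitters' processing notes, bcl2fastq 2.20, DESeq2 and the build GRCm39 were used. Per the labels' protocols, TRIzol RNA was depleted of ribosomal RNA and stranded libraries were read from a single end for 101 cycles. Of the aligner, the counting program and its strand setting, nothing is given in the sources used here, so reads of overlapping or antisense genes are uncertain. Gene names were looked up in NCBI's RefSeq table, which matched 39397 of 40838 rows (99.5% of counts). That table, the promoters and the exon lengths are on GRCm38 and not on the authors' build.

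Genes were filtered with filterByExpr (minimum count 10), scaled with TMM and tested with edgeR 4.0.16 (R 4.3.3; robust glmQLFit, glmQLFTest, group only). P-values are two-sided, Benjamini-Hochberg adjusted over all 17438 genes and called at 0.05. The biological coefficient of variation was 16.9%. CPM were computed from the deposited counts, and log2 CPM used a prior count of 2. Exact permutation tests used the 70 relabellings. Only the edgeR fit was tested on simulated counts, with known changes larger than those of any member. All pairs of libraries differed beyond sampling noise. Alternatives were library totals, DESeq2 size factors, no filter, DESeq2 1.42.0, limma-voom (limma 3.58.1), the replicate number as a block, the code division as a term, and libraries left out.

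The members and lists were chosen with earlier results of these data known. Members were described in full if their groups did not overlap, if they had one of the 6 smallest p-values, for Srebf2, Scap, Insig1 and Insig2, and for the 4 with the widest spread. Up to 4 genes per other list were named by p. Some genes that the naming rule takes are not reported here.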

Additional observations from a re-analysis of the deposited data

Results flagged for a closer look

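Of 54 member groups of 4 libraries, 4 held a library whose gap to the nearest value was past the critical value of Dixon's test, as a share of the group's range. Chance flags about 1 in 20 such groups, and the share of groups flagged over all genes is not given here. All 4 were in the Lpcat3 group. Srebf2 was highest in Lpcat3 replicate 1, at 31.9 CPM, with the nearest value at 28.2 CPM. The other values were in Lpcat3 replicate 3, which was lowest for 20.8% and highest for 20.4% of all genes. Fdps was lowest there, at 14.8 CPM, with the nearest at 42.5 CPM. Sc5d was lowest there, at 379 CPM, with the nearest at 430.5 CPM. Ebp was highest there, at 77.5 CPM, with the nearest at 59.9 CPM.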

How the results depend on the processing

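No member was called under any setting tried. Of all genes, library totals called 3, DESeq2 51, and no filter, the replicate block, the code term, and the fit without both libraries numbered 3 called 0, against 1 in the fit as reported. Leaving out 1 library called 0 to 7 genes, with 15 to 22 members higher and a member median of 0.0073 to 0.1223. Under the replicate block 17 members were higher, with a median of 0.036. Same-numbered deviations correlated at 0.28, -0.07, -0.40 and -0.12, so the numbers were not taken as pairs. With library totals 10 members were higher, and the median of all genes was -0.13, as given above.

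Of the 27 members, 11 kept their sign in all settings. Library totals gave negative log2 fold changes for Srebf2 (-0.0904), Insig1 (-0.0108), Mbtps1 (-0.0799), Mbtps2 (-0.1213), Acat2 (-0.0124), Pmvk (-0.0226), Fdps (-0.0152), Lss (-0.0795), Dhcr7 (-0.082), Icmt (-0.0153), Rabggta (-0.0129), Lrp1 (-0.0244) and Ufd1 (-0.0249). Turned under limma-voom were Srebf2 (-0.0043) and Cyp51 (0.0218), and under the replicate block Mbtps2 (-0.0039) and Fdps (-0.0339). The code term turned Insig1 (-6e-04), Mbtps2 (-0.0755), Hmgcs1 (0.1065), Mvk (0.0079), Lss (-0.0184) and Cyp51 (0.0484). Without both libraries numbered 3, Srebf2 (-0.0031), Insig1 (-0.0183), Hmgcs1 (0.0303), Cyp51 (0.1123) and Ebp (-0.0133) turned. The cause of these turns was not tested.

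With 1 library left out, log2 fold changes that turned ran from -0.1075 to 0.1044 for Cyp51, -0.0506 to 0.1102 for Dhcr7, -0.056 to 0.3452 for Fdps, -0.0737 to 0.0375 for Ggps1, -0.2316 to 0.0534 for Hmgcs1, -0.0187 to 0.1223 for Lss, -0.0672 to 0.0549 for Mbtps2, -0.185 to 0.0627 for Mvk, -0.0658 to 0.233 for Nsdhl, -0.032 to 0.1862 for Pmvk, -0.0669 to 0.0133 for Sc5d and -0.0244 to 0.0709 for Srebf2. At this depth and with 4 libraries a group, differences of the size seen here were not separable from the spread between libraries, and Mvd is also limited by its few counts.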
